A study of Mus musculus with 10 samples.

Results

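The comparison set 3 teratomas carrying R167Q VHL against 3 teratomas carrying wildtype VHL, 6 of the 10 arrays of the series, and the arrays were put in their groups by the sample titles. Each tumour was hybridised to its own 1-colour Affymetrix array, and 18056 autosomal genes were compared. Mouse embryonic stem cells of the J1 line (strain Sv/129) that lack their own Vhl (Vhl-/-) had been given a human VHL cDNA, either wildtype or with the R167Q substitution, a change found in families with von Hippel-Lindau disease. The cells were injected under the skin of both flanks of female nude (nu/nu) mice, 1000000 cells per injection, and the tumours were taken when their longest dimension reached 1 cm. The remaining 4 arrays came from teratomas of the same cells with P81S VHL, 2 replicates of each of 2 clones. They entered the estimate of the spread between arrays and were used only to place the R167Q values. The labels describe the wildtype and R167Q tumours as apoptotic and the P81S tumours as apoptosis-resistant.

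All groups thus lacked mouse Vhl, carried a transgene and grew in immunodeficient hosts, and no group kept the normal gene. The labels do not give the promoter that drove the cDNA, the number of R167Q or wildtype clones, or the animal each tumour came from. The titles call each array a biological replicate, but tumours of a group may share a clone or an animal. Each p-value is thus about the spread among these tumours alone. An effect of the clone cannot be told apart from an effect of the genotype. Host vessels, connective tissue and blood cells are also mouse, so their RNA is in every value. In such bulk tissue, fewer cells of a type and less RNA per cell cannot be told apart.

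The VHL protein brings targets to a ubiquitin ligase. It recognises the hypoxia-inducible factors HIF1A and EPAS1 after oxygen-dependent prolyl hydroxylases have modified them, and so sends them for destruction. Without that step the factors pair with ARNT and raise genes of blood vessel growth, glycolysis, mitophagy and acid handling. A teratoma is a mixed tumour in which stem cells differentiate into tissues of all germ layers, with much neural tissue among them, so its values also depend on which tissues formed.

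The groups resembled each other closely. Over all probe sets the correlation between arrays was 0.989 to 0.990 within R167Q, 0.990 to 0.994 within wildtype and 0.982 to 0.990 between them. The median autosomal gene differed by -0.02 log2 (R167Q minus wildtype), and the central 90% of genes lay between -0.39 and 0.43. A difference had a median standard error (SE) of 0.16. At least 2-fold differences were seen for 77 genes with the higher value in R167Q and for 26 with the lower value. The transgene is human, and whether mouse probes report it was not tested. The probe set for mouse Vhl read 6.83, 6.93 and 7.21 in R167Q and 6.94, 6.95 and 6.85 in wildtype, a difference of 0.08 ± 0.16 (SE), with the groups overlapping. In P81S the same probe set read 8.49 to 8.90, above wildtype by 1.76 ± 0.15 (adjusted p = 3.08e-05, limma). R167Q was below P81S there, with a difference of -1.68 ± 0.15 (adjusted p = 0.000333, limma). Of 15 genes on the Y chromosome, 7 were called, all higher in R167Q, with all 3 wildtype arrays low: Kdm5d, for example, read 9.10, 9.07 and 8.87 in R167Q and 4.54, 4.74 and 4.66 in wildtype. The lines thus differed by more than VHL, and what this contributes to the autosomal differences was not tested.

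Only 8 autosomal genes, 0.0443% of those tested, passed the test across all genes (limma, Benjamini-Hochberg adjusted p under 0.05), and the rises were in genes of neurons. The 5 that rose (0.0277%) were Th, Nr4a2, Ret, Chrm5 and Shc3, by 1.75-fold to 3.84-fold. The 3 that fell (0.0166%) were Fabp9, Aqp8 and Hesx1, by 2.02-fold to 3.22-fold. Folds are ratios of deposited values. Chrm5 in wildtype and Fabp9 and Aqp8 in R167Q read close to 6.02, the median of the array's control block, which is not a measured background, so the size of their folds is uncertain. Of the 8, Chrm5 passed under every one of 22 other settings tried and Fabp9 under 20 of 21. Nr4a2 and Aqp8 passed under 16 of 22, Ret under 15, Th under 13, and Shc3 and Hesx1 under 7 each. Th did not pass when any 1 of the 6 compared arrays was left out (adjusted p from 0.0922 to 0.237, limma). With the adjustment over autosomal genes alone, without the strongly differing Y-linked genes, only Chrm5 (adjusted p = 0.0175, limma) and Fabp9 (0.0201, limma) passed. The number of calls was 4, 2 and 3 without R167Q replicates 1 to 3, 1, 2 and 3 without wildtype replicates 1 to 3, and 12 without P81S replicate 1.

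Dopamine neurons make dopamine from tyrosine and take it back up after release. The sequence of steps is well known: NR4A2 sets and keeps their identity, TH and DDC make the transmitter, SLC18A2 packs it into vesicles and SLC6A3 returns it to the cell. RET is the receptor through which glial cell line-derived neurotrophic factor supports these cells. CHRM5 is the muscarinic acetylcholine receptor found on them, and CHRNA6 with CHRNB3 forms part of their nicotinic receptors. The promoter of Th is shown because this gene, which encodes the rate-limiting enzyme, leads the called rises and carries a well-known regulatory letter run. The capitals mark the cAMP response element TGACGTCA, which reads the same on both strands, in the window of 250 bases before to 50 after the start (RefSeq, GRCm38.p6, chr7:142899946-142900245, minus strand).
Th: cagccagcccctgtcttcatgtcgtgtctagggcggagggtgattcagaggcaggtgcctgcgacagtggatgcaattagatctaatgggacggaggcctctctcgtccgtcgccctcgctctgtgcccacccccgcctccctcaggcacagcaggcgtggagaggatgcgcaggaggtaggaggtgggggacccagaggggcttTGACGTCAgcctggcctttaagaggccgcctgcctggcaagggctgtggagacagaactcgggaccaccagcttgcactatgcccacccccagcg
The element stood in 2 of the 14 windows found for the 16 measured dopamine and noradrenaline genes (14.3%), against 1.88% of 27025 genes in the promoter table. Of the 7 windows of those higher in R167Q without overlap, 1 held it, that of Th. As Th was shown because it carries the element, these shares are no separate result. A match describes the letters only and no binding was measured.

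Th (Entrez gene 21823, chromosome 7) read 10.76, 10.94 and 10.78 log2 in R167Q and 8.58, 9.03 and 9.04 in wildtype. The groups lay well apart and the R167Q arrays were close together. Its difference was 1.94 ± 0.29 (SE, 3 against 3 arrays), 3.84-fold, with an adjusted p of 0.044 in limma's test. Nr4a2 (18227, chromosome 2) read 11.33, 11.12 and 10.52 against 8.91, 9.38 and 9.18. Again every R167Q array was above every wildtype array, with R167Q replicate 3 the nearest to them, and the difference was 1.83 ± 0.24 (adjusted p = 0.0195, limma). Ret (19713, chromosome 6) read 9.74, 9.89 and 9.99 against 8.31, 8.59 and 8.39, a difference of 1.44 ± 0.18 (adjusted p = 0.018, limma). Chrm5 (213788, chromosome 2) had the smallest p of the autosomal genes. It read 7.67, 7.65 and 7.43 against 6.13, 6.15 and 5.96, a difference of 1.504 ± 0.153 (adjusted p = 0.00365, limma).

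Slc6a3 (13162, chromosome 13), the dopamine transporter gene, had the largest autosomal difference among genes whose groups do not overlap and did not pass. It read 10.36, 10.84 and 10.77 in R167Q and 6.98, 8.17 and 8.48 in wildtype, a difference of 2.78 ± 0.47 (6.86-fold, adjusted p = 0.084, limma). The wildtype arrays were spread over more than 1 log2 unit, with replicate 1 lowest. The nicotinic subunit gene Chrna6 showed the same low first wildtype array. Its values were 7.68, 7.98 and 7.88 against 4.59, 6.10 and 5.65 (difference 2.40 ± 0.41, adjusted p = 0.084, limma). Chrnb3 read 7.56, 7.86 and 8.14 against 5.71, 6.18 and 5.68 (2.00 ± 0.37, adjusted p = 0.116, limma). The wildtype values of both subunits lay near or under the control block median. Fitted on the 6 compared arrays alone, all 3 of these genes passed, with adjusted p of 0.0254, 0.0439 and 0.00948 in limma for Slc6a3, Chrna6 and Chrnb3. Drd2, the dopamine autoreceptor gene, read 7.44, 8.26 and 8.37 against 7.40, 6.79 and 6.76. Its groups nearly touched, and the difference of 1.04 ± 0.25 did not pass (adjusted p = 0.283, limma).

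Other genes of the same neurons showed much smaller differences. Ddc, which encodes the enzyme after TH, read 11.02, 11.05 and 10.24 in R167Q and 10.68, 10.77 and 10.36 in wildtype (0.17 ± 0.33). Slc18a2, the vesicle transporter gene, read 10.98, 10.83 and 10.67 against 10.87, 11.05 and 10.54 (0.01 ± 0.24). The groups overlapped for both genes, and both enzyme and transporter are shared with serotonin neurons. The midbrain floor plate factors Foxa2 and Lmx1b differed by 0.16 ± 0.33 and 0.12 ± 0.24, and Pitx3, a factor of differentiated dopamine neurons, by 0.34 ± 0.24. En1, a midbrain factor, read 8.94, 9.04 and 8.98 against 8.24, 8.49 and 8.10 (0.71 ± 0.30), without overlap. En2, its relative, lay the other way, with 7.66, 7.60 and 7.08 against 7.97, 8.10 and 7.79 (-0.50 ± 0.40). Dbh, which turns dopamine into noradrenaline, was dim and read 5.45, 5.82 and 5.35 against 5.82, 5.89 and 6.12 (-0.41 ± 0.16). The serotonin genes Tph2 and Slc6a4 also had lower values in R167Q, with differences of -0.69 ± 0.35 and -0.66 ± 0.38. Neither passed.

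**Figure D1:**
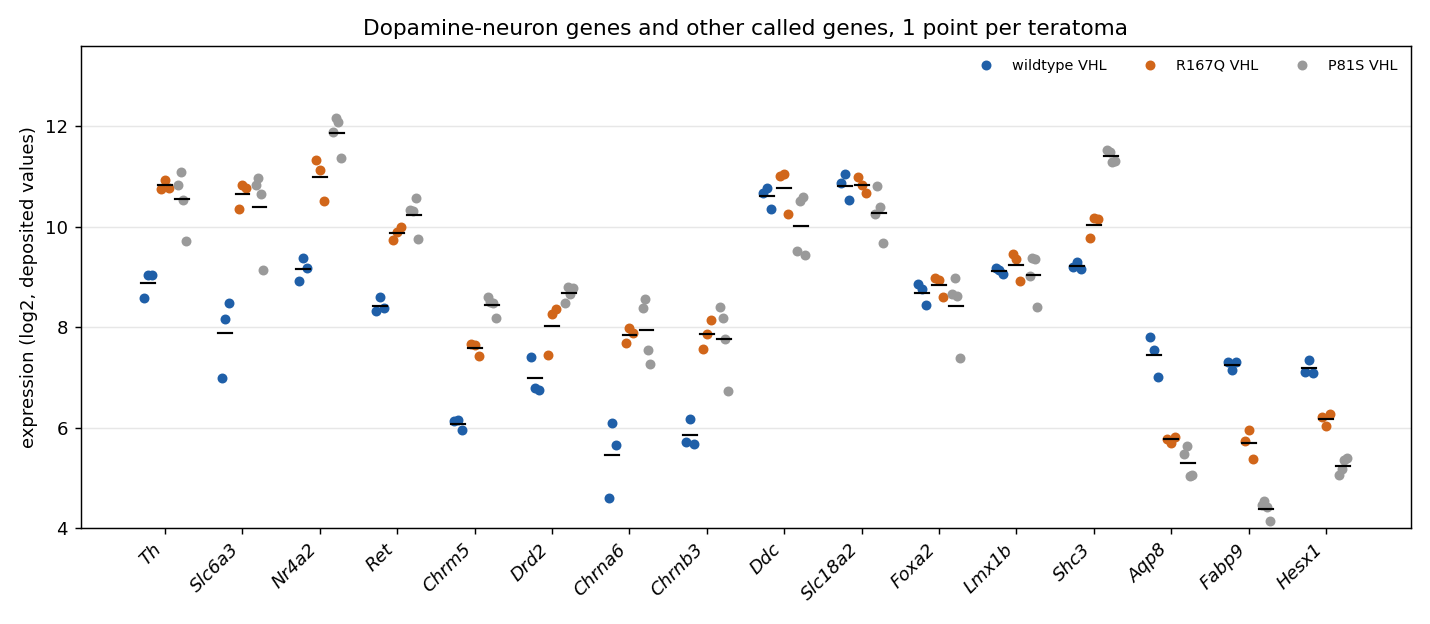
Deposited log2 expression (vertical axis) of 12 chosen genes of dopamine neurons and of the other 4 called genes. Each teratoma is 1 point and bars mark group means. Chrna6 and Chrnb3 stand outside the dopamine list, and the list members En2 and Dbh, lower in R167Q, are not shown. R167Q points (orange) of Th, Slc6a3, Nr4a2, Ret and Chrm5 all lie above the wildtype points (blue), those of Ddc, Slc18a2, Foxa2 and Lmx1b overlap them, and Aqp8, Fabp9 and Hesx1 lie below; P81S is grey.

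Of the 16 measured dopamine and noradrenaline genes, 4 were called higher and 0 lower, against 0.0277% and 0.0166% of all autosomal genes. This list, like the others, was chosen with earlier results of these data known. Its counts describe the members and are no separate support. Without regard to the adjustment, 7 were higher and 1 lower at an unadjusted p under 0.05, against 3.86% and 5.64% of all autosomal genes. The arrays did not overlap for 8 with R167Q higher and 2 with R167Q lower, against 6.91% and 12.2% of all autosomal genes. Their median difference was 0.52. Over the 73 measured neural genes as a whole, the same 4 were called higher and the median difference was 0.16. At an unadjusted p under 0.05, 14 were higher and 1 lower (19.2% and 1.37%, against 3.86% and 5.64%). Without R167Q replicate 2 the 14 became 8 and the median 0.04, and without wildtype replicate 3 they became 9 and 0.09. The mean of the list read 8.92, 9.21 and 8.83 in R167Q and 8.85, 8.72 and 8.67 in wildtype, so these groups overlapped and replicate 2 of R167Q was the highest.

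The classes differed from each other. Of 19 pan-neuronal genes, 17 had a difference above 0, where 46% of all autosomal genes did, but the median was only 0.17. Map2, a dendrite protein gene, read 11.57, 11.71 and 11.47 against 11.44, 11.32 and 11.22 (0.26 ± 0.10), and it was the one pan-neuronal gene without overlap. Rbfox3, the gene of the nuclear antigen NeuN, differed by 0.08 ± 0.29 and Syt1, of synaptic vesicles, by -0.04 ± 0.17. Among 6 glutamate genes, Slc17a6, the vesicular glutamate transporter, read 9.83, 10.14 and 9.53 against 9.14, 9.01 and 9.04 (0.77 ± 0.18), and Gria1, a receptor subunit, differed by 0.83 ± 0.29. Of 9 GABA genes, 3 had a difference above 0 and the median was -0.19. Calb2, the calcium-binding protein of some interneurons, differed by 0.65 ± 0.17, and Gad2 and Gad1, which make GABA, by 0.22 ± 0.31 and 0.06 ± 0.36, while the forebrain factors Dlx1 and Dlx5 differed by -0.58 ± 0.38 and -0.37 ± 0.29. The 14 genes of neural progenitors had a median of 0.09 and none without overlap. Vgf, a neuropeptide precursor outside the list, read 7.70, 7.997 and 8.99 against 6.58, 6.61 and 6.98 (1.51 ± 0.28, adjusted p = 0.116, limma). Of 14 glial genes 11 had a difference above 0. Gfap, of astrocytes, read 10.79, 12.36 and 12.07 against 10.79, 10.81 and 10.87, with R167Q replicate 1 at the wildtype level.

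**Figure D2:**
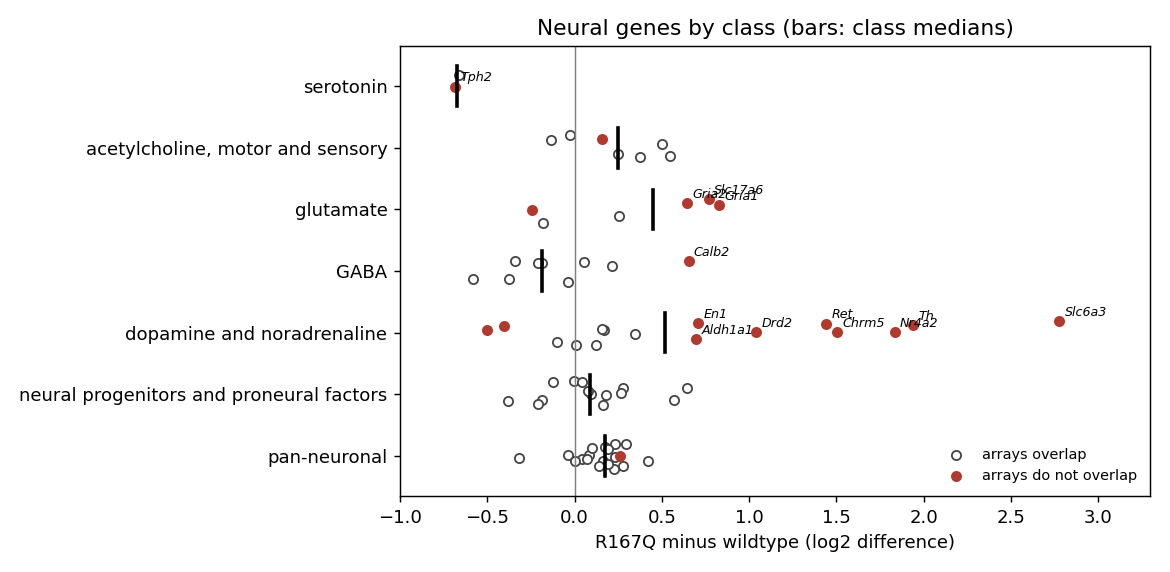
Log2 difference (R167Q minus wildtype, horizontal axis) of every measured neural gene, grouped by class, with 1 point per gene, red where the 3 and 3 arrays do not overlap, and black bars at class medians. The dopamine and noradrenaline class runs from -0.50 to 2.78, while most pan-neuronal genes lie within 0.4 of 0.

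The dopamine genes with large differences were also higher in the P81S tumours, compared with the same wildtype arrays. The P81S minus wildtype difference was 1.66 for Th, 2.52 for Slc6a3, 2.72 for Nr4a2, 1.81 for Ret and 2.36 for Chrm5. Set directly against P81S, R167Q was lower for Chrm5 (-0.86 ± 0.14, adjusted p = 0.00219, limma) and for Nr4a2 (-0.89 ± 0.22, adjusted p = 0.0164). For Th the difference from P81S was 0.28 ± 0.27, for Slc6a3 0.26 ± 0.44 and for Ret -0.37 ± 0.17, none of which passed. Whether the genes differed from each other in this respect was not tested. For comparison, 22.3% of all autosomal genes were called between R167Q and P81S. Both differences from wildtype share their control arrays.

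Shc3 (20418, chromosome 13), an adaptor of receptor tyrosine kinases that is found in neurons, was the fifth rise. It read 9.77, 10.17 and 10.15 against 9.19, 9.30 and 9.15 and differed by 0.81 ± 0.12 (adjusted p = 0.0491, limma). In P81S it was higher again, between 11.29 and 11.53, and R167Q was lower than P81S by 1.38 ± 0.12. The 3 called falls had no list in common. Fabp9 (21884, chromosome 3), a fatty acid-binding protein gene known from testis, read 5.73, 5.96 and 5.37 in R167Q and 7.31, 7.15 and 7.31 in wildtype (-1.57 ± 0.17, adjusted p = 0.00699, limma). Aqp8 (11833, chromosome 7), a water channel of gut and liver, read 5.78, 5.70 and 5.81 against 7.80, 7.55 and 7.01 (-1.69 ± 0.23, adjusted p = 0.0215). Hesx1 (15209, chromosome 14), a repressor of early embryo and anterior neural plate that is also found in stem cells, read 6.21, 6.02 and 6.27 against 7.11, 7.34 and 7.09 (-1.01 ± 0.15, adjusted p = 0.046). In all 3 the wildtype arrays were the highest of the series. Fabp9 and Hesx1 were lower still in P81S, where Fabp9 read 4.13 to 4.54 and Hesx1 5.05 to 5.39, and R167Q was above P81S by 1.30 ± 0.16 and 0.93 ± 0.14. Hesx1 in R167Q, like Fabp9 and Aqp8, lay near the control block median.

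The hypoxia response genes showed small differences in 1 direction. None of the 50 measured genes passed the adjusted test, but 18 were higher and 0 lower at an unadjusted p under 0.05 (36%, against 3.86% and 5.64% of all autosomal genes). For 17 the arrays did not overlap with R167Q higher, and for 0 with R167Q lower (34% and 0%, against 6.91% and 12.2% of all autosomal genes). In all, 42 had a difference above 0 and the median was 0.35, a 1.28-fold difference. The mean of the list was 9.22, 9.45 and 9.47 log2 in R167Q and 9.04, 8.89 and 9.16 in wildtype, so the groups did not overlap, with R167Q replicate 1 and wildtype replicate 3 nearest to each other. Leaving out single arrays put the median between 0.25 and 0.41, and without wildtype replicate 2 the count of 18 became 11. The same list had a median of 0.36 in P81S minus wildtype and of -0.04 in R167Q minus P81S.

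HIF binds the short core ACGTG or GCGTG. The promoters of Egln3, Pfkfb3 and Bnip3 are shown as 3 chosen examples of textbook HIF targets whose R167Q arrays all lay above the wildtype arrays. Capitals mark each match of the core on either strand in the same window around the start (RefSeq, GRCm38.p6). Egln3 lies at chr12:54203825-54204124, Pfkfb3 at chr2:11553880-11554179 and Bnip3 at chr7:138909457-138909756, all on the minus strand.
Egln3: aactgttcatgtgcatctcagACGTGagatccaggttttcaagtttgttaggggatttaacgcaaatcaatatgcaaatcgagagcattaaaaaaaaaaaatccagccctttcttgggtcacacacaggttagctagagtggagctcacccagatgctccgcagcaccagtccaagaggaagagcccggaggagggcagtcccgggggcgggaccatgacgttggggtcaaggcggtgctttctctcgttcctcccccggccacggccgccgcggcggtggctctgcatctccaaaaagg
Pfkfb3: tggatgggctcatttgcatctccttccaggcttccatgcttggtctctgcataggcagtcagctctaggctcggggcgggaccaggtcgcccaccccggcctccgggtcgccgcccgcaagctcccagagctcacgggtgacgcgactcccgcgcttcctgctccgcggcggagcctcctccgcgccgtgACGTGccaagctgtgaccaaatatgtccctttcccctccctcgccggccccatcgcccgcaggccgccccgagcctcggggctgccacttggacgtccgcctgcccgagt
Bnip3: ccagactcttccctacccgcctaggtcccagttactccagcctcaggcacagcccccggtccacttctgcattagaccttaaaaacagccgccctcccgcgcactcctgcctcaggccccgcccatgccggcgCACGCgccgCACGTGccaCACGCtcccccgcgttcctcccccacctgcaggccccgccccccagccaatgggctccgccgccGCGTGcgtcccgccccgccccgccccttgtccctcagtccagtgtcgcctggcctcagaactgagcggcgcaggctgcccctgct
The core matched once in Egln3, once in Pfkfb3 and 5 times in Bnip3, with overlapping matches counted. It stood in 33 of the 41 windows found for hypoxia genes (80.5%), in 12 of the 16 windows of those without overlap (75%), and in 43.8% of all genes. The windows of Vegfa, Gys1, Vldlr and Mxi1, also without overlap, held 0 matches, which says only that these letters are not in them. As the 3 windows shown are a choice that all carry the core, they are no separate result. A match describes the letters only, and no binding was measured.

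Egln3 and Egln1 encode the prolyl hydroxylases that mark HIF for VHL, and both are themselves raised by HIF. Egln3 read 10.72, 10.78 and 10.53 in R167Q and 10.40, 9.77 and 9.83 in wildtype (0.68 ± 0.16, adjusted p = 0.283, limma). Egln1 read 10.21, 10.61 and 10.32 against 9.73, 9.65 and 10.05 (0.57 ± 0.14, adjusted p = 0.283). For both, the lowest R167Q array stood just above the highest wildtype array. The factors showed less: Hif1a differed by -0.07 ± 0.11 and Arnt by -0.06 ± 0.14, and Epas1, whose transcript is rich in endothelium, by 0.41 ± 0.46, all with overlap. Hif3a, of a further HIF subunit, read 7.40, 7.04 and 7.13 against 6.95, 6.60 and 6.92 (0.37 ± 0.25), without overlap.

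Among secreted factors Vegfa, the main growth factor of blood vessels, had the largest difference of the list. It read 10.42, 10.89 and 10.85 in R167Q and 9.73, 9.33 and 9.91 in wildtype, 1.06 ± 0.23 or 2.09-fold (adjusted p = 0.239, limma). No R167Q array reached down to the wildtype range. Stc2, a secreted glycoprotein gene, read 8.19, 8.42 and 8.43 against 7.72, 7.53 and 7.82 (0.66 ± 0.17, adjusted p = 0.298). Adm, of the vessel-dilating peptide adrenomedullin, read 7.73, 8.79 and 8.62 against 7.48, 7.32 and 7.77 (0.86 ± 0.36). Here R167Q replicate 1 lay within the wildtype range. The same array was the low one for Car9, the acid-handling carbonic anhydrase often used as a HIF marker, at 5.27, 7.12 and 6.71 against 5.24, 5.40 and 5.64 (0.94 ± 0.43). The wildtype values of Car9 lay under the control block median. Angptl4 and Pgf, further secreted targets, differed by -0.01 ± 0.22 and -0.02 ± 0.29.

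All 13 metabolic and mitophagy targets had a difference above 0, with a median of 0.21. Bnip3, which tags mitochondria for removal, read 11.44, 11.93 and 12.10 against 11.37, 10.97 and 11.38 (0.58 ± 0.17), and its second probe set differed by 0.62. Higd1a, a mitochondrial protein gene, read 7.65, 8.14 and 8.34 against 7.54 in each wildtype array (0.50 ± 0.21). Slc2a1, the main glucose transporter gene, overlapped, at 12.87, 12.76 and 12.72 against 12.72, 12.48 and 12.74 (0.13 ± 0.11). Of the matrix enzymes, P4ha1, a collagen prolyl hydroxylase subunit, read 11.22, 10.97 and 11.003 against 10.58, 10.31 and 10.71 (0.53 ± 0.15). Among other targets Vldlr, a lipoprotein receptor, differed by 0.54 ± 0.15 and Rora, a nuclear receptor, by 0.52 ± 0.13, both without overlap. Bhlhe40, a repressor, differed by 0.83 ± 0.25 but its lowest R167Q array touched the highest wildtype array at 8.58. Ddit4, Cited2 and Kdm3a, which hypoxia also raises, differed by 0.08 ± 0.15, -0.04 ± 0.10 and 0.09 ± 0.15.

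**Figure D3:**
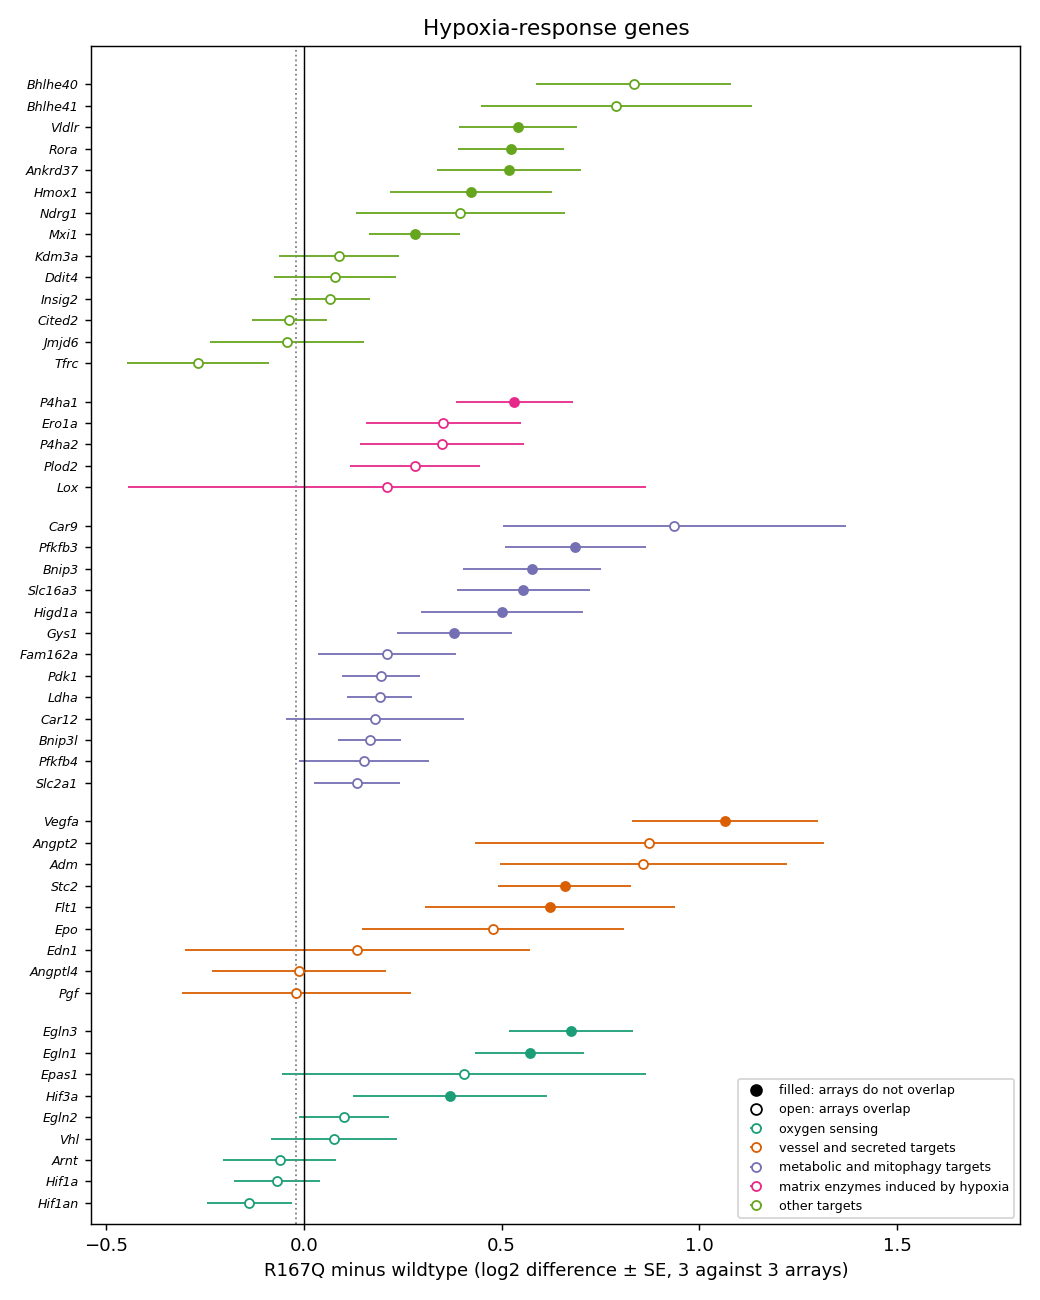
Log2 difference (R167Q minus wildtype) with its SE for each measured hypoxia gene, coloured by role and filled where the 3 and 3 arrays do not overlap; the dotted line is the median of all autosomal genes. Filled points lie to the right of 0 only, from Mxi1 at 0.28 to Vegfa at 1.06, while Hif1a, Arnt and Hif1an lie left of 0.

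Glycolysis turns glucose into lactate, and HIF raises many of its enzymes. Of the 35 listed genes 29 were measured on autosomes, and 7 genes stand in more than 1 of the 4 main lists, so the counts are not separate from those above. None passed the adjusted test, and 6 were higher and 0 lower at an unadjusted p under 0.05 (20.7% and 0%, against 3.86% and 5.64% of all autosomal genes). In all, 25 had a difference above 0 (86.2%, against 46%), and the median was 0.19. The mean of the list read 10.14, 10.25 and 10.16 in R167Q and 10.003, 9.85 and 10.03 in wildtype, without overlap. P81S arrays read 10.11 to 10.41.

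Along the pathway the differences were uneven. For transport, Slc16a3, the lactate exporter gene, read 10.97, 10.86 and 10.85 against 10.37, 9.996 and 10.65 (0.56 ± 0.17, adjusted p = 0.359, limma). This was a point of difference from P81S, which read 9.79 to 10.25, below R167Q by 0.90 ± 0.16 (adjusted p = 0.00265). All 8 genes from hexokinase to aldolase had a difference above 0. Pfkl, the liver-type phosphofructokinase gene, read 11.04 in each R167Q array against 10.56, 10.27 and 10.79 (0.50 ± 0.12), and Hk1 read 10.14, 10.47 and 10.43 against 10.12, 9.74 and 10.10 (0.36 ± 0.13). Pfkfb3, which makes the activator of phosphofructokinase, read 9.12, 9.50 and 9.39 against 8.70, 8.46 and 8.79 (0.69 ± 0.18). Of the later steps Tpi1, triose phosphate isomerase, read 12.21, 12.47 and 12.38 against 12.00, 11.73 and 12.12 (0.40 ± 0.11). Gapdh, at 13.92 to 13.98 in R167Q and 13.89 to 13.93 in wildtype, differed by 0.04 ± 0.05. Pkm, the last kinase, differed by -0.06 ± 0.11, Ldha by 0.19 ± 0.08 and Ldhb, of the other lactate dehydrogenase subunit, by -0.23 ± 0.15.

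The tricarboxylic acid cycle leaned the other way. Of 17 measured genes 16 had a difference below 0 and 1 above (5.88%, against 46% of all autosomal genes). At an unadjusted p under 0.05, 4 were lower (23.5%, against 5.64%) and 0 higher. For 7 the arrays did not overlap with R167Q lower (41.2%, against 12.2% of all autosomal genes). The median was -0.11 and none passed. The mean of the list read 10.28, 10.32 and 10.22 in R167Q and 10.45, 10.38 and 10.43 in wildtype. Fh1, fumarase, read 10.93, 10.90 and 10.85 against 11.15, 11.24 and 11.44 (-0.39 ± 0.09, adjusted p = 0.283, limma), and Mdh2, malate dehydrogenase, differed by -0.24 ± 0.07.

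**Figure D4:**
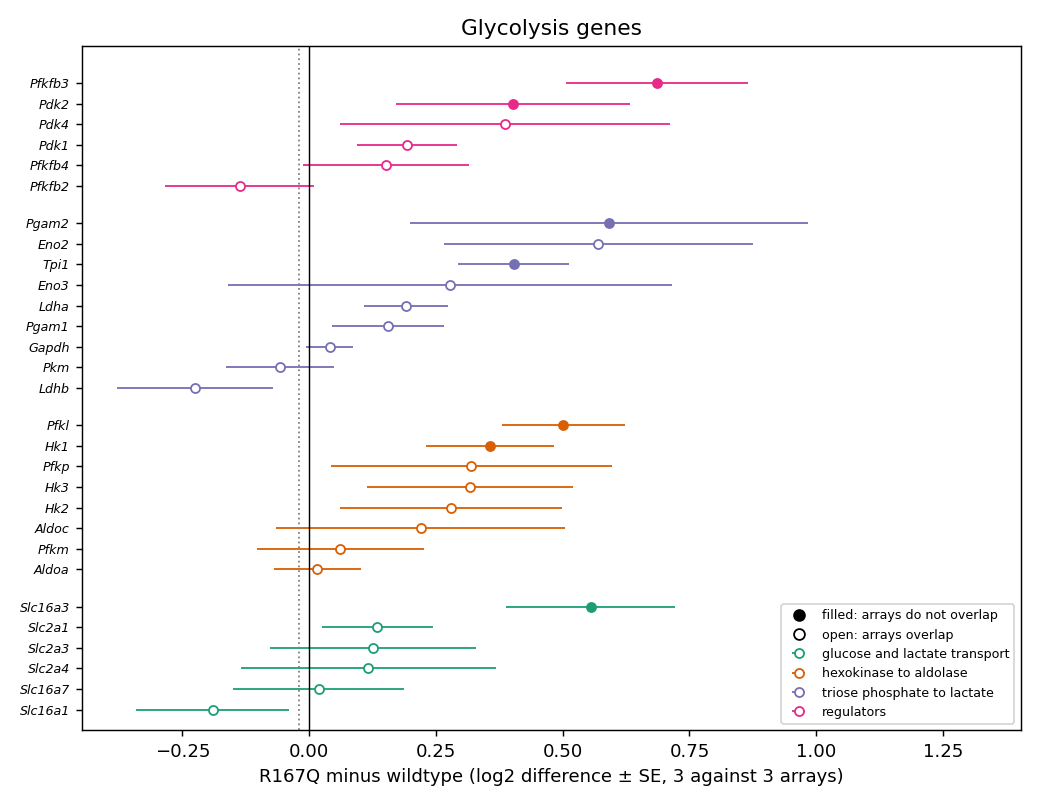
Log2 difference (R167Q minus wildtype) with its SE for each measured glycolysis gene, grouped by step and filled where the 3 and 3 arrays do not overlap. Slc16a3, Pfkl, Hk1, Tpi1, Pgam2, Pdk2 and Pfkfb3 are filled and lie right of 0, while Slc16a1, Pkm, Ldhb and Pfkfb2 lie left of it.

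Stroma is the connective tissue of the tumour. Its mean difference of 0.19 was smaller than the standard deviation of its array means, 0.22 in R167Q and 0.24 in wildtype. Of 58 measured genes 48 had a difference above 0 (82.8%, against 46% of all autosomal genes), and the median was 0.20. For 11 the arrays did not overlap with R167Q higher (19%, against 6.91%), and for 1 with R167Q lower (1.72%, against 12.2%). At an unadjusted p under 0.05, 5 were higher and 1 lower (8.62% and 1.72%, against 3.86% and 5.64%), and 0 passed limma's adjusted test. The 5 became 3 without R167Q replicate 3 (median 0.14) or without wildtype replicate 2 (median 0.10), and the median was 0.31 without R167Q replicate 2 and 0.32 without wildtype replicate 3. The mean of the list read 8.998, 8.64 and 9.06 in R167Q and 8.65, 8.50 and 8.97 in wildtype, with overlap. The same R167Q replicate 2 was the low one for most collagens. Col1a1, the main fibril collagen chain, read 10.02, 8.98 and 10.02 against 9.20, 8.91 and 9.66 (0.42 ± 0.61), and Postn, periostin, read 10.77, 9.71 and 10.68 against 10.14, 9.26 and 10.61 (0.38 ± 0.57). More even were Thbs1, a matrix glycoprotein gene, at 9.70, 9.88 and 10.12 against 8.90, 8.84 and 9.49 (0.82 ± 0.24), and Prelp, a proteoglycan gene, at 10.80, 10.55 and 10.78 against 9.95, 10.09 and 10.10 (0.66 ± 0.19). Neither passed (adjusted p = 0.331 and 0.329, limma). Loxl2, a collagen crosslinking enzyme, differed by 0.68 ± 0.24 and by -0.06 at a dimmer second probe set. Prrx1, a factor of mesenchyme, differed by 0.58 ± 0.21 and Timp2, a protease inhibitor, by 0.46 ± 0.16. The median was 0.25 over 10 fibril collagens, 0.49 over 7 proteoglycans and 0.09 over 10 genes of basement membrane.

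Lama1, the laminin chain of embryonic basement membranes, went against the list. It read 8.31, 7.67 and 7.78 in R167Q and 9.41, 8.83 and 9.22 in wildtype (-1.23 ± 0.27, adjusted p = 0.227, limma), and P81S read 7.07 to 8.11. Every R167Q array was below every wildtype array.

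The medians of the endothelial, smooth muscle and pericyte, macrophage and red cell lists were also above 0. Of 19 endothelial genes 17 had a difference above 0 (median 0.63), and their mean read 8.31, 8.03 and 8.57 in R167Q against 7.67, 7.35 and 8.24 in wildtype, with overlap. Kdr, the VEGF receptor of endothelium, read 8.18, 7.82 and 7.73 against 6.86, 6.52 and 7.74 (0.87 ± 0.42). The 14 genes of smooth muscle and pericytes had a median of 0.52 and did not overlap as a mean, with 7.90, 8.08 and 8.12 against 7.54, 7.22 and 7.65. Rgs5, of pericytes, read 8.77, 8.35 and 9.004 against 7.64, 7.27 and 8.19 (1.01 ± 0.42). All 21 macrophage genes had a difference above 0 (median 0.41), with a mean of 8.43, 8.99 and 8.99 against 8.41, 8.60 and 8.23. Msr1, a scavenger receptor, read 7.87, 9.04 and 8.74 against 7.85, 7.47 and 7.77 (0.85 ± 0.29). The 13 red cell genes had a mean of 6.23, 6.69 and 6.12 against 5.90, 5.64 and 5.81, and Slc4a1, the anion exchanger of red cells, read 7.26, 9.01 and 9.67 against 6.15, 5.97 and 6.21 (2.53 ± 0.73, adjusted p = 0.329, limma). Of the red cell genes 10 had a difference above 0 and 3 below, among them Rhd, a blood group gene, at -0.44 ± 0.23 and Ermap at -0.31 ± 0.15. Only 2 of the 13 read above the control block median in all 6 arrays. At an unadjusted p under 0.05, 1 endothelial gene (5.26%), 2 of smooth muscle and pericytes (14.3%), 4 of macrophages (19%) and 2 of red cells (15.4%) were higher in R167Q, against 3.86% of all autosomal genes, and none passed limma's adjusted test. The part of these cells in the hypoxia and stroma differences was not tested.

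**Figure D5:**
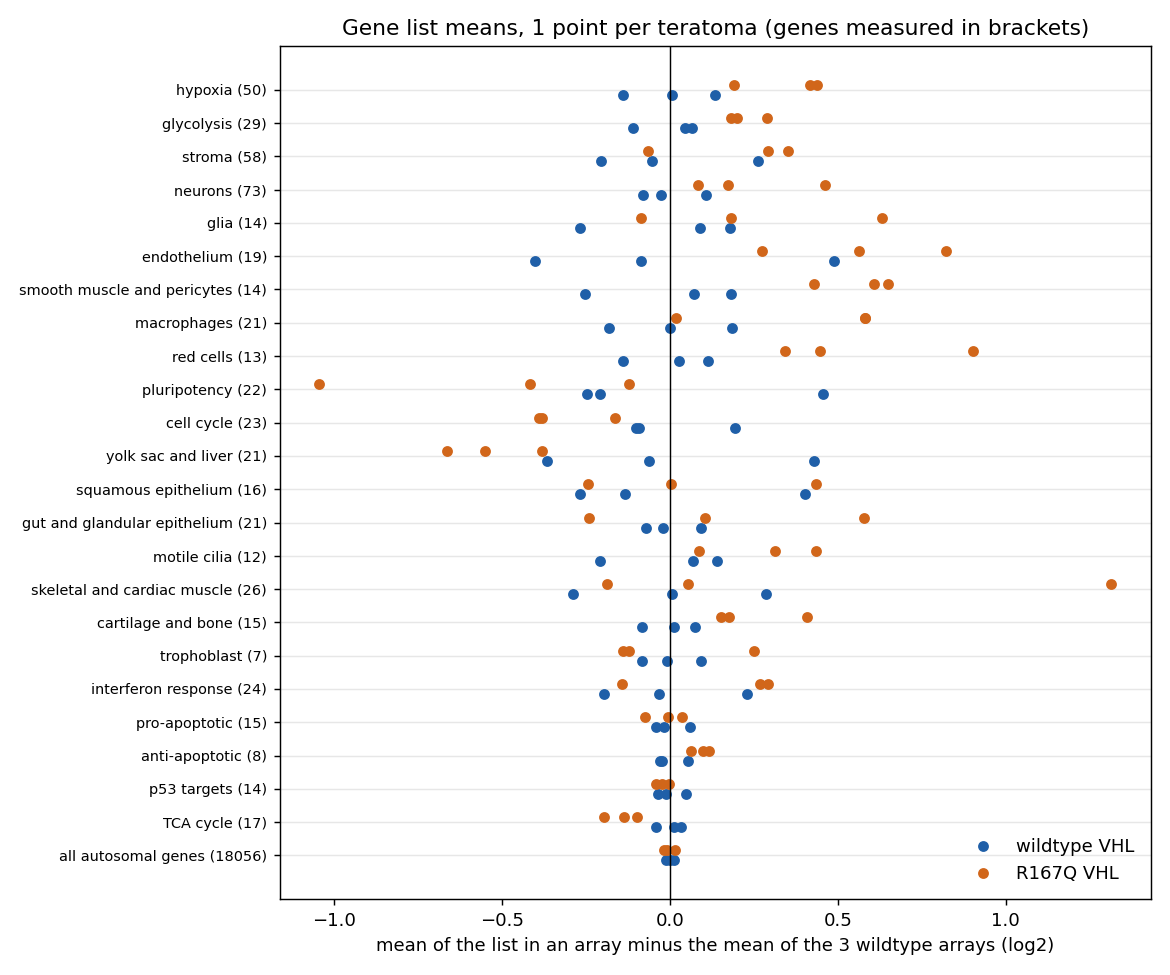
Mean of each gene list in each array, minus the mean of the 3 wildtype arrays (log2, horizontal axis), with 1 point per teratoma (orange R167Q, blue wildtype). The 3 R167Q points lie clear of the 3 wildtype points for hypoxia and glycolysis, among others, on the right, and for the TCA cycle, among others, on the left, while those of stroma, endothelium and neurons overlap.

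Genes of the stem cell and yolk sac states had lower values on the whole. All 22 pluripotency genes had a difference below 0 (median -0.51), although the arrays were widely spread, with 9.23, 8.60 and 9.52 in R167Q and 9.44, 9.40 and 10.10 in wildtype. Dppa3, of germ and stem cells, read 9.19, 8.11 and 9.37 against 9.47, 9.64 and 10.19 (-0.88 ± 0.37). Of 23 cell cycle genes 22 had a difference below 0 (median -0.35), and for 14 the arrays did not overlap with R167Q lower (60.9%, against 12.2% of all autosomal genes). Their mean read 10.59, 10.37 and 10.36 against 10.65, 10.66 and 10.95. At an unadjusted p under 0.05, 2 pluripotency genes (9.09%) and 1 cell cycle gene (4.35%) were lower and none higher, against 5.64% of all autosomal genes lower. The 21 yolk sac and liver genes had a median of -0.60, and 5 were lower (23.8%) and 0 higher at an unadjusted p under 0.05. Afp, the fetal serum protein, read 6.27, 5.53 and 5.48 against 7.002, 8.52 and 7.40 (-1.88 ± 0.53, adjusted p = 0.325, limma), and Gata4, an endoderm and heart factor, read 6.57, 6.47 and 6.60 against 8.37, 7.31 and 7.41 (-1.15 ± 0.40). Afp in R167Q lay near or under the control block median, so the size of its difference is uncertain. Of the 21 yolk sac and liver genes 15 read above that median in all 6 arrays.

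The remaining tissue lists, apart from cartilage and bone, showed little that stood clear of the spread. Skeletal and cardiac muscle had 23 of 26 genes above 0 (median 0.36), but R167Q replicate 1 alone carried a mean of 8.09, where the other R167Q arrays read 6.83 and 6.59 and wildtype 7.06, 6.78 and 6.49. For cartilage and bone the median was 0.26, and the mean read 7.21, 6.95 and 6.98 against 6.71, 6.81 and 6.87, without overlap. Of its 15 genes, 3 did not overlap with R167Q higher (20%, against 6.91% of all autosomal genes). Only 8 of the 15 read above the control block median in all 6 arrays. Hapln1, a cartilage link protein, read 7.51, 6.69 and 6.66 against 5.34, 6.15 and 5.97 (1.13 ± 0.30, adjusted p = 0.309, limma). The wildtype values of Hapln1 lay near or under the control block median. Genes of motile cilia had a median of 0.27, squamous epithelium 0.12, interferon response 0.05, trophoblast -0.02 and gut epithelium -0.03.

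Outside the lists, a few further genes differed by more than 2-fold without overlap, and none of them passed. Car3, a carbonic anhydrase of muscle and fat, read 12.06, 10.94 and 11.52 in R167Q and 10.11, 10.34 and 9.34 in wildtype (1.58 ± 0.41, adjusted p = 0.301, limma). Adgrl4, an adhesion receptor of endothelium, read 8.53, 8.47 and 8.89 against 6.996, 6.17 and 7.95 (1.59 ± 0.53). Gucy2c, the gut receptor for guanylin that is also found in midbrain dopamine neurons, read 7.43, 7.31 and 7.04 against 5.39, 6.05 and 6.03 (1.44 ± 0.42). Ppbp, a platelet chemokine, and Arg1, an arginase of macrophages and liver, differed by 1.91 ± 0.75 and 1.43 ± 0.68. With the lower value in R167Q, Slc5a4b, of the sodium and glucose transporter family, read 7.59, 6.79 and 7.02 against 8.11, 8.54 and 8.50 (-1.25 ± 0.22, adjusted p = 0.0973, limma). Gtsf1 and Tex12, genes of the germ line, differed by -1.20 ± 0.25 and -1.09 ± 0.32, and Nlrp4c, of the same family as oocyte genes, by -1.19 ± 0.34. R167Q lay between wildtype and P81S for Nlrp4c, with 7.59 to 8.65 in R167Q, 9.12 to 9.98 in wildtype and 4.69 to 5.51 in P81S.

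The tumours of both groups are labelled apoptotic, and the pro-apoptotic and p53 target lists were close to level. The 15 pro-apoptotic genes had a median of -0.03 with 6 above 0, and the 14 p53 targets had a median of -0.03. Cdkn1a, the p21 cell cycle inhibitor, read 10.78, 11.22 and 10.95 against 10.81, 10.47 and 10.48 (0.40 ± 0.12, adjusted p = 0.375, limma), and Sesn2, a stress sensor, read 8.64, 8.80 and 8.72 against 9.14, 8.92 and 9.24 (-0.38 ± 0.12, adjusted p = 0.375). Of 8 anti-apoptotic genes, 6 had a difference above 0 and 2 below, with a median of 0.17. The mean of this list read 8.69, 8.655 and 8.71 in R167Q and 8.56, 8.57 and 8.646 in wildtype, so the groups nearly touched without overlap. Bcl2 read 10.56, 10.90 and 10.50 against 10.49, 10.30 and 10.31 (0.29 ± 0.12), and Bcl2l1 differed by 0.27 ± 0.12. At an unadjusted p under 0.05, 0 of 15 pro-apoptotic genes differed and 2 of 8 anti-apoptotic genes were higher (25%). Of the 14 p53 targets 1 was higher and 1 lower (7.14% each). The shares of all autosomal genes were 3.86% higher and 5.64% lower. None passed limma's adjusted test.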

How the data were processed

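Log2 expression values were used as the authors deposited them, 1 per probe set and array, for 10 teratomas. RMA and Partek appear in the submitters' processing notes, with no version or setting, and if all arrays were set to 1 distribution, a change in total RNA is lost. Array medians lay between 6.97 and 7.11. Signal over background is unknown, and precision is limited by how few arrays there are. Of 35556 probe sets, 6616 numbered before the first annotated one were left out as a control block, and 21218 had 1 gene, 1881 several and 5841 none. Entrez numbers of 21185 matched RefSeq names (GRCm38.p6). Each of 18820 genes was read from its brightest probe set, and near-identical copies cannot be separated.

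All arrays entered 1 model with 3 group means in limma 3.58.1 (R 4.3.3, variance trend, two-sided, 7 residual degrees of freedom), adjusted by Benjamini-Hochberg over all genes. Errors are model SEs. The script was tested on simulated data. Of 582 genes in 23 lists, 534 were measured and 521 were autosomal. The comparison and the lists were chosen with earlier results of these data known. Named genes were Vhl, the called genes, the 15 largest rises and 15 largest falls without overlap, all members of the hypoxia, glycolysis, stroma and neurons lists, and the 4 smallest p of every other list. The sets of alternatives covered scaling, filters, probe set choice, the variance model, a replicate block and each array left out.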

Additional observations from a re-analysis of the deposited data

Results flagged for a closer look

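Genes outside the autosomal comparison differed most. On the Y chromosome, R167Q was above wildtype by 5.42 log2 for Eif2s3y, 4.82 for Uty, 4.37 for Kdm5d, 4.16 for Uba1y, 3.98 for Zfy1, 2.91 for Zfy2 and 1.74 for Usp9y, each passing limma's test. On the X chromosome, 2 of 719 genes were called, Nup62cl with a difference of -1.32 and Prame with -1.14. Xist, which marks cells with an inactive X chromosome such as those of the female host, read 8.25, 7.98 and 8.57 in R167Q and 7.001, 8.06 and 7.25 in wildtype, a difference of 0.83 ± 0.34 that did not pass (adjusted p = 0.481, limma). Higher calls in R167Q were also made for 1 probe set that several genes share and for 8 that have no gene in the annotation.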

How the results depend on the processing

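Against 5 calls higher and 3 lower, the count of higher calls was 3 without the variance trend, 11 with only the 6 compared arrays, 21 with array weights, 11 with a replicate block on those 6 arrays and 1 with the adjustment over autosomal genes. The count of lower calls was 1 without the dimmest genes (quantile 0.25), 6 with the 6 arrays, 9 with array weights and 1 with the autosomal adjustment. The 5 stroma genes at an unadjusted p under 0.05 became 9, 8 and 13 with the 6 arrays, with array weights and with the block on the 6 arrays. Counts of this kind were added after the data were seen. Leaving out 1 array at a time gave 1 to 8 higher and 0 to 4 lower calls. The medians then ran from 0.25 to 0.41 for hypoxia, 0.15 to 0.24 for glycolysis, 0.10 to 0.32 for stroma and 0.04 to 0.26 for neurons, and the counts of members at an unadjusted p under 0.05 from 11 to 22, 4 to 8, 3 to 7 and 8 to 16. The causes were not tested. The medians of these 4 lists kept their sign under the settings that recompute them; those of the other lists were not recomputed.

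Deviations of same-numbered tumours from their group means correlated at -0.215, 0.031 and 0.212, and those of other pairs at -0.388 to 0.423. With so few pairs these values cannot decide whether the replicate numbers pair the tumours. With the number as a replicate block over all arrays, 6 genes were called higher and 2 lower. Of the 8 calls 6 were kept, and Chrnb3 (adjusted p = 0.0379, limma) and Slc6a3 (0.0123) were added.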
